A study of Homo sapiens with 13 samples.

Results

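Cells of the T-cell acute lymphoblastic leukemia line CCRF-CEM were compared in their parental form (CEM PA) and as a population resistant to FK866 (CEM RES) while both lines were under the drug. The members are all 6 arrays of FK866-treated cells among the 13 arrays of the series, 2 of CEM PA and 4 of CEM RES, and every gene measured on them, 17594 in all. Both lines had received 5 nM FK866 for 48 h. The other 7 arrays, 3 of CEM PA and 4 of CEM RES treated with the DMSO vehicle (mock), served to ask which differences between the lines were absent without added drug. CEM RES is 1 population, isolated by raising the FK866 concentration stepwise, and cells resistant to 100 nM were used. According to the study's methods this population was kept under FK866 in culture, so mock CEM RES were not cells that had never met the drug. The labels call the arrays of a group biological replicates without saying whether cultures were separate, so p values measure the spread between these arrays. The labels name no engineered allele in either line.

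FK866 inhibits nicotinamide phosphoribosyltransferase (NAMPT), the rate-limiting enzyme of the salvage route that makes NAD+ from nicotinamide. NAD+ carries electrons for glycolysis and respiration and is consumed by sirtuins, PARPs and CD38. T leukemia cells depend strongly on this route, and cells can also make NAD+ from nicotinic acid, nicotinamide riboside or tryptophan.

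Under FK866 CEM RES and CEM PA differed in 4682 genes, with 2399 genes higher and 2283 lower in CEM RES. A gene was called when its adjusted p in limma was under 0.05 and its absolute log2 difference over 0.75. Most of these differences were also present without added drug, since 3459 of the 4682 genes were called in the same direction between the mock groups. Only 7 genes met all criteria for a difference under FK866 that was absent between the mock groups. Absent means here that the confidence interval of the mock difference lay wholly inside the log2 limit of 0.75, so smaller differences can remain. The genes are FLCN, RMND5A, MARCHF8, STK17B, DNAJC3 and PCGF3, which were lower in CEM RES, and PEX3, which was higher. PEX3 still differed in mock, by -0.41, in the direction opposite to that under FK866. In all 7 the CEM PA arrays with FK866 stood apart from the other 11 arrays, and the CEM RES arrays with FK866 lay near the mock arrays.

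The test of the change of the line difference, that is the difference under FK866 minus the difference in mock, passed in 23 genes, or 0.131% of those tested. The promoters of 5 of them are shown. These 5 genes moved together in CEM PA and not in CEM RES, but on the arrays that picked them, so this is no separate evidence. They are RGS1 and KLHL11, whose change passed under every setting tried, and FLCN, the largest change among the 7 genes. MARCHF8 and LATS1 were picked because 1 promoter of each holds a motif, and that promoter is shown. Each runs from 250 bases before to 50 bases after the gene's start in RefSeq, build GRCh38.p14. Capitals mark a match to TGATGNAAT, the C/EBP-ATF element, in MARCHF8 and to TGANTCA in LATS1. TGANTCA, with any base at N, was used as a loose pattern for the AP-1 element, and its match in LATS1 reads TGAATCA. The other promoter of MARCHF8 and that of LATS1 hold no match and are not shown. TGANTCA is also in the promoters of NUTM2G and KLHL15, which are not shown.
RGS1, chr1:192575523-192575822, plus strand: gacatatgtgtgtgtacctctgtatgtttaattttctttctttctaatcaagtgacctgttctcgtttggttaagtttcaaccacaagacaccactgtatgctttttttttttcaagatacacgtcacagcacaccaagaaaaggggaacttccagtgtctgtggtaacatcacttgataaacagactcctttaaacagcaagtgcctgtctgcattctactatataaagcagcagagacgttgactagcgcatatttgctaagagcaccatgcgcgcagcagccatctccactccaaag
KLHL11, chr17:41865374-41865673, minus strand: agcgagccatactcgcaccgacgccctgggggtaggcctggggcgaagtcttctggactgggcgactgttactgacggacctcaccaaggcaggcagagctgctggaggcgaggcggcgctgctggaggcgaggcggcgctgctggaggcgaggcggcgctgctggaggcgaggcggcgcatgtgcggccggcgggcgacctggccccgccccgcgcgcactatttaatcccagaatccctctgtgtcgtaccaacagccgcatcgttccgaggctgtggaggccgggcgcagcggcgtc
FLCN, chr17:17237119-17237418, minus strand: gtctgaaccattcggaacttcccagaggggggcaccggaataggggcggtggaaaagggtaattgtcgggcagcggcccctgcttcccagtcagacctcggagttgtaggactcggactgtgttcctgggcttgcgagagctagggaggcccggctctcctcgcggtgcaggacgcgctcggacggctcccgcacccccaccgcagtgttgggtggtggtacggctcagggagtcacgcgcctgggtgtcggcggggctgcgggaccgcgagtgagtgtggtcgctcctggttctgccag
MARCHF8, chr10:45535322-45535621, minus strand: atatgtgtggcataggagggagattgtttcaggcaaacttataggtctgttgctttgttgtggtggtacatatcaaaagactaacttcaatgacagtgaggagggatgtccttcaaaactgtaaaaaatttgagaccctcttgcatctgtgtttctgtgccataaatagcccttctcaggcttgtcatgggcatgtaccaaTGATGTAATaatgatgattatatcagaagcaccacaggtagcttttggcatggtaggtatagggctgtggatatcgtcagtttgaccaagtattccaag
LATS1, chr6:149718052-149718351, minus strand: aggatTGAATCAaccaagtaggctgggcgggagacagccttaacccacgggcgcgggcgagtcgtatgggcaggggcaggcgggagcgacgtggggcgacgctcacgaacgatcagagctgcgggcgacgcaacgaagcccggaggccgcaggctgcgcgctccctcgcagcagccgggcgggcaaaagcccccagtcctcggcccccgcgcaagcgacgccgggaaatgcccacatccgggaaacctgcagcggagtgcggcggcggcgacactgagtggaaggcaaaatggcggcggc
RefSeq lists 33 promoters for 22 of the 23 genes, and the other is a probe without a gene name. The count was planned for the 7 genes absent in mock and was widened to all 23. In the promoters of the 7, the only match was that of MARCHF8 to TGATGNAAT. Searched on both strands, TGANTCA was in 3 of the 33 (9.09%) beside 7.71% of all 35116 promoters in the table. TGATGNAAT was in 1 of 33 (3.03%) beside 0.991%, and TGACGTCA, the cAMP response element, was in 0 of 33 beside 1.85%. No match says only that these letters are not in these windows, and genes with several promoters counted several times.

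Each array held 43118 spots that were not controls. Between 27615 and 33239 of them were well above background on the 6 FK866 arrays, and 0 were saturated. Replicate arrays with FK866 correlated across genes with Pearson's r of 0.99 in CEM PA and 0.985 to 0.991 in CEM RES. All CEM PA arrays were scanned in sessions 1 and 2 and lay on slides 1 to 4. All CEM RES arrays were scanned in session 3 and lay on slides 5 and 6. Line, scan session and slide therefore cannot be told apart in any difference between the lines. Each session held both treatments, and the change of the line difference passed in 21 genes with session as a block. CEM PA FK866 replicate 2 and CEM PA mock replicates 2 and 3 were each alone on a slide. Among these arrays treatment and slide cannot be told apart. With slide as a random block the change passed in 25 genes. The number of arrays, most of all the 2 of CEM PA with FK866, limits the precision: the median standard error of a log2 difference was 0.24 under FK866, 0.22 in mock and 0.33 for the change.

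Markers of the T lineage were measured in both lines. All 18 T-lineage markers were well above background on every array, and their summed log2 signal was 213.0 to 216.2 in CEM PA and 213.7 to 215.4 in CEM RES with FK866. This criterion does not set the lists apart. The B cell, myeloid and epithelial markers past the filter were also well above background on all 6 FK866 arrays. Mean T-lineage signals ran from PTCRA (6.66 in CEM PA, 5.24 in CEM RES) to CD3D (16.78, 16.88). CD79A (11.78, 11.07) and KRT8 (10.08, 9.64) lay between. Within the list CD3E, CD3G, RAG1, BCL11B and TCF7 were higher in CEM RES, and CD5, PTCRA, GATA3 and LEF1 were lower. Of the B cell markers, CD79B was called lower in CEM RES (mean log2 signal 7.11 in CEM PA, 5.57 in CEM RES), MS4A1 and CD79A were not called, and PAX5 and CD22 did not pass the filter on dim probes. Over 6 of 8 epithelial markers the summed log2 signal was 46.1 to 48.8 in CEM RES and 43.1 to 43.3 in CEM PA. Only AXL (2.557) and KRT7 (1.074) were called, both higher in CEM RES. KRT8 (-0.435), KRT18 (0.42), CAV1 (0.085) and EGFR (0.457) were not called, and EPCAM and KRT19 were not past the filter. Of the myeloid markers 2 of 6 and of the NK markers 1 of 4 passed the filter, with none called, and CD33, MPO, CSF1R, NCAM1, KLRD1 and KLRF1 were not past it. The part of these markers in the differences below was not tested. In bulk RNA, fewer cells of a type and less RNA per cell cannot be told apart.

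The 4682 genes called under FK866 were 26.6% of those tested, 13.6% higher and 13% lower in CEM RES. Between the mock groups 5849 genes, or 33.2%, were called. The study's double threshold (unadjusted p under 0.05 and the same fold limit) was passed by 5202 genes, or 29.6%, under FK866. With scaling of the arrays to the 75th percentile of their signal, not quantile normalization, the split moved to 3446 higher and 2040 lower. That scaling moved the median log2 difference of all genes from 0.09 to 0.22, a shift of 0.13. The arrays of both lines did not overlap for 10158 genes, or 57.7%, and for 4651 of the 4682 called genes. Without CEM PA FK866 replicate 1 the count of called genes was 3003, of which 2672 were among the 4682.

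Across all genes the line difference under FK866 followed that in mock (Pearson's r = 0.857, n = 17594 genes measured on the same arrays, which are not independent replicates). The 3459 genes called in the same direction in both conditions were 73.9% of those called under FK866 and 59.1% of those called in mock. Their median absolute log2 difference was 1.31 under FK866 and 1.41 in mock. Another 5 genes were called in both conditions in opposite directions, and 2385 were called in mock alone. The remaining 1218 genes were called under FK866 and not in mock. Of these, 1102 had the same sign in mock and 493 had a mock adjusted p under 0.05 with a fold under the limit. The change itself was therefore tested for each gene.

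**Figure D1:**
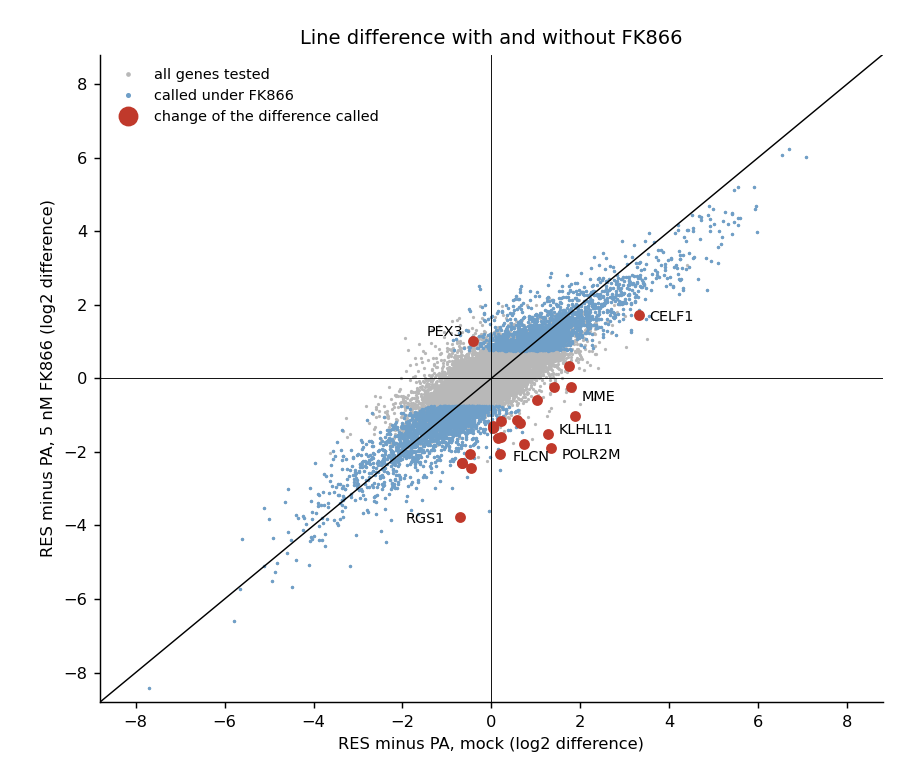
Log2 difference of CEM RES minus CEM PA for each of 17594 genes, in mock (x axis) and under 5 nM FK866 (y axis), with the diagonal marking equal differences. Blue points are the genes called under FK866 and red points the 23 genes whose difference changed, of which 22 lie below the diagonal and only PEX3 above it.

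Of the 1218 genes, 15 passed the test of the change at an adjusted p under 0.05. In 7 of these the 95% interval of the mock difference lay wholly between -0.75 and 0.75, and these are the 7 genes absent in mock. In 8 the mock interval reached past the limit. For 268 genes the mock interval was inside the limit but the change did not pass, and for 935 neither held. At an unadjusted p under 0.05 the change was met by 1958 genes. The count of 7 rests on the arrays used: without CEM PA FK866 replicate 2 it was 18, sharing 3 genes with the 7, and without CEM PA FK866 replicate 1 it was 7 again but shared 1. Without 1 of the other arrays it was 1 to 6, and with the mean of a gene's probes in place of the brightest it was 0.

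FLCN encodes folliculin, a tumour suppressor that takes part in nutrient sensing at the lysosome. Its log2 signal under FK866 was 11.72 and 11.58 in CEM PA, against 9.40, 9.67, 9.82 and 9.51 in CEM RES. In mock it was 9.25, 9.48 and 9.89 in CEM PA, against 9.82, 9.68, 9.86 and 9.59 in CEM RES. Both CEM PA arrays with FK866 were above all 11 other arrays, which overlapped among themselves. The line difference was -2.05 under FK866 (SE 0.19, adjusted p = 2.77e-05 in limma) and 0.20 in mock (95% interval -0.17 to 0.56). The change was -2.24 (SE 0.25, limma adjusted p = 0.00719) and kept its call without any 1 array. It rests on 1 probe at chr17:17124668-17124727 on hg19. The other FLCN probes gave a difference under FK866 of -0.97 (chr17:17116134-17116193) and 0.10 (chr17:17128139-17128198), and over the mean of the probes the change did not pass, with an adjusted p of 0.181.

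Among the other genes absent in mock, RMND5A and MARCHF8 both encode parts of the ubiquitin system, the first a subunit of the CTLH ligase and the second a ligase of membrane proteins. RMND5A was at 11.93 and 11.70 in CEM PA, against 10.16, 10.43, 10.20 and 10.13 in CEM RES under FK866, against 9.94, 9.92 and 10.41 and 10.43, 10.37, 10.30 and 10.08 in mock. Its difference was -1.58 (SE 0.18) under FK866 and 0.21 (SE 0.16) in mock, a change of -1.79 (limma adjusted p = 0.0147). The CEM PA arrays with FK866 were again the only ones apart. The change was no longer called without CEM PA FK866 replicate 1, CEM PA mock replicate 1 or CEM RES FK866 replicate 1 (adjusted p up to 0.0955). It was also not called with the mean of the probes or with a replicate block over all arrays. The other RMND5A probes differed by -1.02 and -0.41 under FK866 and by -0.33 and -0.56 in mock, changes of -0.70 and 0.15. MARCHF8, listed as MARCH8 on the array, was dim: 6.15 and 5.89 in CEM PA, 4.26, 4.56, 4.03 and 4.74 in CEM RES with FK866, and 4.35 to 4.78 on the mock arrays. All 13 arrays measured it well above background, and the 2 CEM PA arrays with FK866 were above the rest. Its difference was -1.62 (SE 0.21) under FK866 and 0.16 (SE 0.18) in mock, a change of -1.78 (limma adjusted p = 0.0324). With normexp background correction the difference under FK866 was -0.57 and no longer called.

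STK17B encodes a serine/threonine kinase of lymphocytes, and PCGF3 a component of a polycomb repressive complex. STK17B was at 13.10 and 12.98 in CEM PA, against 11.68, 11.72, 11.60 and 11.69 in CEM RES under FK866, and at 11.67 to 12.20 on the 7 mock arrays. PCGF3 was at 11.06 and 10.94 in CEM PA, against 9.77, 9.62, 9.74 and 9.66 in CEM RES, and at 9.54 to 10.03 in mock. The groups did not overlap under FK866 and overlapped in mock for both genes. The differences under FK866 were -1.36 (SE 0.16) for STK17B and -1.30 (SE 0.16) for PCGF3, with 0.03 and 0.04 in mock. Their changes of -1.40 and -1.34 had limma adjusted p values of 0.0312 and 0.0324. Of the other STK17B probes, 1 at chr2:196998290-196998319 differed by -1.21 under FK866 and by -1.13 in mock, so its change was -0.08. The other PCGF3 probe differed by -1.19 under FK866 and by -0.68 in mock, a change of -0.51.

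DNAJC3 encodes a co-chaperone of the endoplasmic reticulum that restrains kinases of eIF2alpha. Under FK866 it was at 11.00 and 10.72 in CEM PA, against 9.76, 9.75, 9.73 and 9.59 in CEM RES, and it was at 9.61, 9.77 and 9.87 and 10.00, 9.89, 10.15 and 9.85 in mock. CEM PA with FK866 was highest, and CEM RES with FK866 lay within the range of mock CEM PA apart from 1 array just below it. The difference was -1.15 (SE 0.15) under FK866 and 0.22 (SE 0.13) in mock, and the change was -1.37 (limma adjusted p = 0.0276). The other DNAJC3 probe differed by 0.25 under FK866 and 1.64 in mock, and with the mean of the probes neither the difference under FK866 (-0.45, adjusted p = 0.324) nor the change (0.302) was called. PEX3, a peroxin needed to build the peroxisome membrane, moved the other way. It was at 8.85 and 9.02 in CEM PA, against 9.82, 9.80, 10.05 and 10.11 in CEM RES under FK866, against 10.04, 10.06 and 10.38 and 9.64, 9.70, 9.91 and 9.75 in mock. Both CEM PA arrays with FK866 were lowest. The difference was 1.01 (SE 0.16) under FK866 and -0.41 (SE 0.14, limma adjusted p = 0.0317) in mock, so PEX3 differed slightly in mock in the opposite direction.

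**Figure D2:**
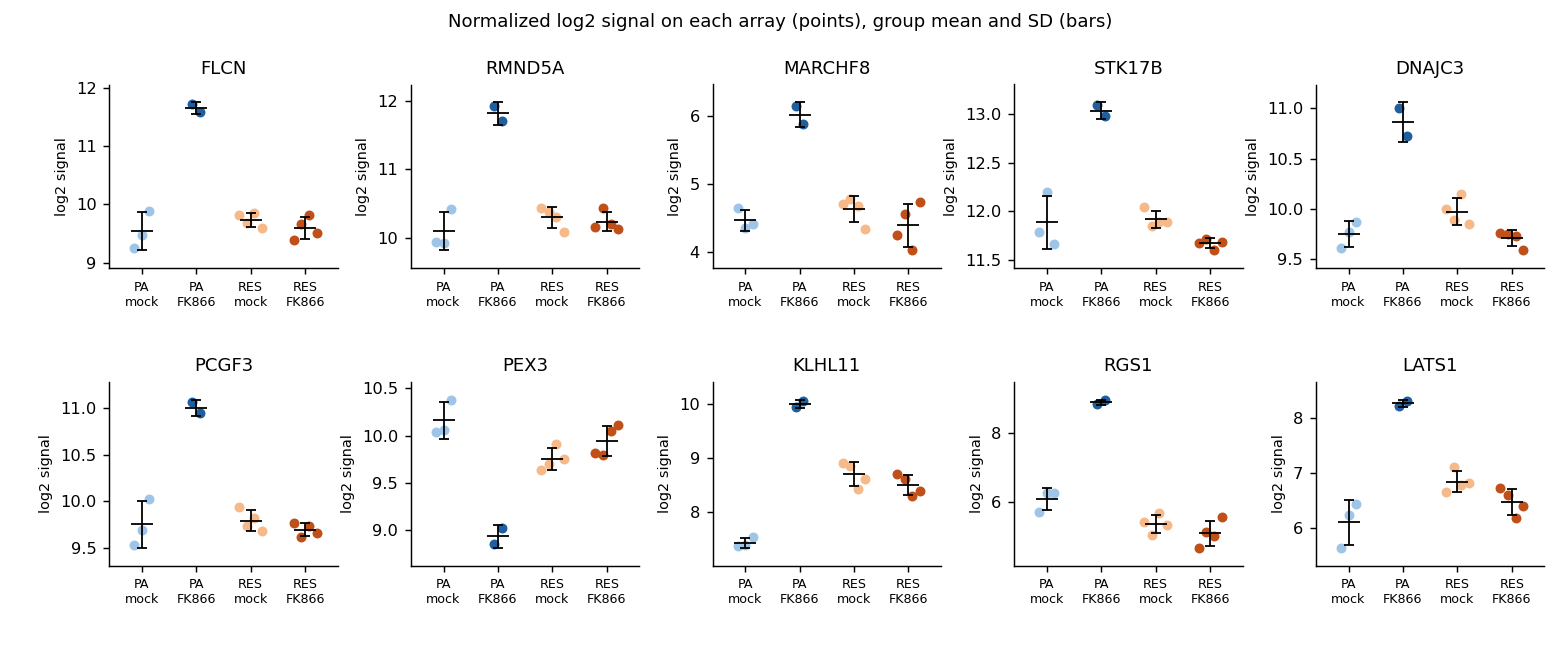
Normalized log2 signal (y axis, 1 scale per panel) of 10 genes on each of the 13 arrays, grouped by line and treatment, with the group mean and SD as bars. In FLCN, RMND5A, MARCHF8, STK17B, DNAJC3, PCGF3, KLHL11, RGS1 and LATS1 the 2 CEM PA arrays with FK866 are the highest, and in PEX3 the lowest.

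Within a line, mock and FK866 arrays of the same replicate number deviated together and were taken as pairs. Arrays of unlike number were not compared. In CEM PA the arrays of a pair also shared a scan session, so pairing and session cannot be told apart there. With the replicate number as a block within each line, the change remained called for FLCN (-2.42, limma adjusted p = 0.0378), RMND5A (-1.95, 0.0378) and PCGF3 (-1.48, 0.0408). It was not called for DNAJC3 (adjusted p = 0.0589), MARCHF8 (0.0704), PEX3 (0.0526) and STK17B (0.0634). Leaving out single arrays ended more of the calls. The change was not called for DNAJC3 without any 1 of 11 arrays (all but CEM PA FK866 replicate 2 and CEM PA mock replicate 3) and for PEX3 without any 1 of 13. For MARCHF8, PCGF3 and STK17B it was not called without any 1 of 12 arrays (all but CEM RES FK866 replicate 4, CEM PA mock replicate 3 and CEM PA mock replicate 2). The highest adjusted p over these fits was 0.153 for DNAJC3, 0.176 for MARCHF8, 0.174 for PCGF3, 0.156 for PEX3 and 0.154 for STK17B, and the sign of the change stayed the same in every one.

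KLHL11, a substrate adaptor of cullin 3 ubiquitin ligases, was lower in CEM RES under FK866 and higher there in mock. It was at 9.95 and 10.06 in CEM PA, against 8.70, 8.62, 8.29 and 8.39 in CEM RES under FK866. In mock it was at 7.37, 7.39 and 7.54 in CEM PA, against 8.91, 8.85, 8.42 and 8.62 in CEM RES. The lines did not overlap in either condition, and the CEM RES arrays overlapped between conditions. The difference was -1.50 (SE 0.18) under FK866 and 1.26 (SE 0.16) in mock, and the change was -2.77 (SE 0.23, limma adjusted p = 0.000894). Together with RGS1 it kept the call of the change in all 26 settings tried.

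The other 4 genes called in opposite directions held less firmly. POLR2M, which encodes a subunit of RNA polymerase II, was well above background on both CEM PA arrays with FK866 (4.71 and 5.00) and on 0 of 4 CEM RES arrays, so it was at least 3.42-fold lower in CEM RES. In mock it was well above background on 0 of 3 CEM PA and 2 of 4 CEM RES arrays, at least 1.44-fold higher in CEM RES. Its change passed (limma adjusted p = 0.0449) but did not with normexp (0.26), with the block within line (0.0836) or without any 1 of 12 arrays, all but CEM RES mock replicate 1 (up to 0.199). The probe A_33_P3312754, which has no gene name (chr16:79755224-79755283 on hg19), was at 9.77 and 9.94 in CEM PA, against 8.78, 8.68, 9.05 and 8.79 in CEM RES under FK866. Its difference was -1.03 under FK866 (SE 0.34, limma adjusted p = 0.0319) and 1.89 in mock. The call under FK866 was lost without either CEM PA FK866 array or without CEM RES FK866 replicates 1, 2 or 4 (adjusted p up to 0.16). ATXN1, whose protein is ataxin 1, and the pseudogene DUSP5P1 (DUSP5P on the array) were higher in CEM RES under FK866 by 1.03 and 0.78 and lower in mock by -0.86 and -0.83, and their changes did not pass (limma adjusted p = 0.204 and 0.163). Both calls under FK866 were lost without either CEM PA FK866 array and without several others (adjusted p up to 0.17 and 0.191).

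RGS1 encodes a regulator of G-protein signalling that is prominent in lymphocytes, and it had the largest difference under FK866 among the 23. It was at 8.82 and 8.93 in CEM PA, against 4.68, 5.12, 5.01 and 5.57 in CEM RES under FK866. In mock it was at 5.72, 6.26 and 6.26 in CEM PA, against 5.42, 5.04, 5.68 and 5.35 in CEM RES. The CEM PA arrays with FK866 were more than 2 log2 units above every other array. The difference was -3.78 under FK866 (SE 0.25, limma adjusted p = 3.53e-06) and -0.70 in mock (SE 0.22, interval -1.19 to -0.22), and the change was -3.08 (SE 0.34, limma adjusted p = 0.00719). RGS1 is not among the 7 genes because its mock interval reached past the limit.

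Besides RGS1, another 7 genes, named after their values were seen, were called under FK866 and not in mock, passed the test of the change and had a mock interval past the limit, and all were lower in CEM RES under FK866. LATS1, a kinase of the Hippo pathway, was at 8.23 and 8.32 in CEM PA, against 6.73, 6.60, 6.19 and 6.40 in CEM RES. Its difference was -1.80 under FK866 and 0.74 in mock, a change of -2.53 (SE 0.30, limma adjusted p = 0.00956) that kept its call without any 1 array. The mean of its probes gave a difference of -0.52 under FK866 that was not called. KLHL15, another cullin 3 adaptor, differed by -1.22 and 0.63, and SPTBN1, a beta spectrin of the membrane skeleton, by -1.14 and 0.58. On the probes used, the differences of LATS1, KLHL15 and SPTBN1 had opposite signs under FK866 and in mock. The other LATS1 probe was higher in CEM RES in both, by 0.76 and 1.01, a change of -0.25. The other SPTBN1 probe differed by 0.15 and -0.13, a change of 0.28. With the mean of the probes the changes of LATS1 and SPTBN1 were not called. A replicate block over all arrays ended the calls of LATS1, KLHL15 and SPTBN1. Without CEM PA FK866 replicate 1 the change was not called for KLHL15 (adjusted p = 0.0649) and SPTBN1 (0.0802), and for SPTBN1 also not without CEM RES FK866 replicate 1. The block within line ended the call of KLHL15 (0.0602).

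On the probe used, the other 4 of these genes were lower in CEM RES in both conditions and more so under FK866. NUTM2G, listed as FAM22G, differed by -2.45 under FK866 and -0.46 in mock. The RNA-binding protein gene RBM33 differed by -2.31 and -0.65, and WDR33, a subunit of the complex that cleaves and polyadenylates mRNA, by -2.30 and -0.67. SAMD8, related to sphingomyelin synthases, differed by -2.05 and -0.47. Their changes ranged from -1.99 to -1.58 with limma adjusted p values of 0.0191 to 0.04. The block within line ended the calls of NUTM2G (0.0572), RBM33 (0.0721) and SAMD8 (0.0534). Without 1 array the change was not called in 10 of 13 fits for NUTM2G, 11 for RBM33, 12 for WDR33 and 7 for SAMD8, with an adjusted p of up to 0.0958, 0.201, 0.164 and 0.109. For RBM33 the mean of its probes differed by -0.21 under FK866 and was not called. Its other probes differed by -0.15, 0.64 and 0.99 under FK866 and by 1.01, 1.36 and 1.64 in mock. The other WDR33 probes differed by -1.71, -0.85 and 0.41 under FK866 and by -0.66, -1.85 and 1.06 in mock. Their changes were -1.05, 1.0 and -0.65, so for both genes the pattern does not hold on every probe.

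In 5 further genes the line difference was smaller under FK866 than in mock. CELF1, an RNA-binding protein of splicing and mRNA decay, was higher in CEM RES in both conditions, by 1.72 under FK866 and 3.31 in mock, a change of -1.60. It was at 7.07 and 6.92 in CEM PA, against 8.73, 8.76, 8.42 and 8.93 in CEM RES under FK866, and mock CEM PA was lower at 5.48, 5.76 and 5.98. MME, the endopeptidase CD10 that marks immature lymphoid cells, was at 11.78 and 11.61 in CEM PA, against 11.54, 11.32, 11.67 and 11.33 in CEM RES under FK866, with overlap. In mock it was at 9.70, 10.20 and 10.19 and at 11.77, 11.56, 12.01 and 11.93, with the lines apart. On this probe MME differed by -0.23 (95% interval -0.65 to 0.19) under FK866 and 1.79 in mock, and its change of -2.02 passed (limma adjusted p = 0.0117) but not without CEM PA FK866 replicate 1 (0.0669). The other MME probes were higher in CEM RES under FK866 by 1.12 and 0.90, with changes of 0.69 and -0.26. With the mean of the probes the change was -0.53 and not called (adjusted p = 0.37), so an absent difference under FK866 holds for 1 of 3 probes.

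SECISBP2L and ILRUN (C6orf106 on the array), the latter an inhibitor of inflammatory signalling, were the other genes called in mock whose difference under FK866 had an interval inside the limit (SECISBP2L -0.24, interval -0.66 to 0.17; ILRUN 0.33, interval -0.05 to 0.72). Their mock differences were 1.40 and 1.74. SEMA7A, a membrane-anchored semaphorin, was called in mock (1.04) and differed by -0.60 under FK866, where its fold was under the limit. The calls of the change were lost without any 1 of 12 arrays for SECISBP2L (adjusted p up to 0.141) and SEMA7A (0.199), of 10 for CELF1 (0.158) and of 12 for ILRUN (0.995), and with the block within line for CELF1 (0.0534) and SEMA7A (0.0534). In ILRUN a different probe was the brightest in some of these fits, and its other probe gave a change of 0.09.

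In CEM PA all 23 genes passed an adjusted p of 0.05 between FK866 and mock, with absolute log2 changes of 0.99 to 2.80. In CEM RES 0 passed, and their changes lay between -0.95 and 0.20. Both comparisons use the arrays that chose the 23 genes, so this describes the change and is no separate evidence. Over all genes the FK866 response passed in 90 genes in CEM PA and in 0 in CEM RES. In CEM RES 841 of the 17594 genes had an unadjusted p under 0.05 in limma. That is near the share of 0.05 that this limit gives where no gene differs. Of the 23 genes 13 had other probes past the filter, 21 in all. The change had the same sign in 16 of the 21, with an unadjusted p under 0.05 in 5, and the opposite sign in 5.

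**Figure D3:**
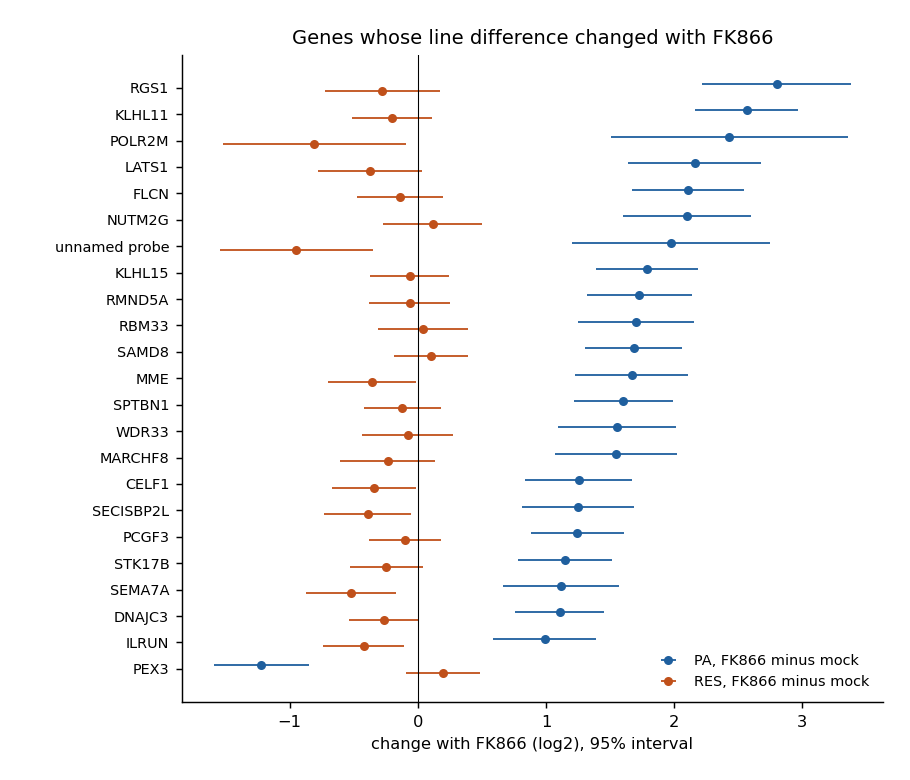
Log2 change with FK866 (FK866 minus mock, x axis) in CEM PA (blue) and CEM RES (orange) for the 23 genes whose line difference changed, with 95% intervals from the limma fit. The CEM PA changes are 0.99 to 2.80 in size and those of CEM RES lie between -0.95 and 0.20.

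The largest differences under FK866 were shared with mock. TINAGL1, an extracellular matrix protein gene, was at 5.26 and 6.87 in CEM PA, against 12.37, 12.19, 12.11 and 11.87 in CEM RES, a difference of 6.07 (SE 0.51, limma adjusted p = 1.5e-05) beside 6.54 in mock. HAPLN2, a link protein of hyaluronan matrices, differed by 5.20 and the small nucleolar RNA SNORA73A by 4.49. The histone genes HIST1H4E, HIST1H3D, HIST1H3F and HIST1H2AJ were higher by 4.20 to 4.46, and the antisense RNA RUSC1-AS1 by 4.41. Histone genes are near copies of each other, so these probes may read several of them. The naming rule took only genes whose groups did not overlap under FK866, so the lack of overlap is no result. In none of the 8 did the change against mock pass (limma adjusted p of 0.45 to 0.836).

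PREX1, an exchange factor of Rac GTPases, was at 11.09 and 11.06 in CEM PA, against 3.97, 4.47, 4.02 and 5.50 in CEM RES, a difference of -6.58 (SE 0.44, limma adjusted p = 3.53e-06) beside -5.80 in mock. EPAS1, which encodes the hypoxia-inducible factor HIF-2alpha, was at 10.06 and 10.10 against 4.56, 4.90, 4.12 and 4.76, a difference of -5.50 beside -4.93. The arrays of both lines were more than 5 log2 units apart in both genes. SNCAIP (synphilin 1) differed by -5.67, the bile acid binding protein gene FABP6 by -5.25, MYO18B by -4.75, the interferon-inducible GTPase gene GBP2 by -4.38 and FBLN2, a fibulin of the extracellular matrix, by -4.33. All 16 of the largest rises and falls named by the rule, EGR1 included, were called in mock in the same direction.

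Some genes were at background in 1 line, where only a bound can be given. It is the mean of the bright group over, on each array of the other, the higher of the dimmest signal well above background and the probe's own signal. Under FK866, 167 of the 17594 genes were well above background on all 4 CEM RES arrays and on 0 of 2 in CEM PA. The reverse held for 71, which were well above background on both CEM PA arrays and on 0 of 4 in CEM RES. Being at background on 2 arrays is easier to meet than on 4, so these counts cannot be set against each other. The same pattern held also in mock for 25 and 32 genes. HDDC2 was at 9.87 and 9.63 in CEM PA and not well above background in CEM RES, at least 128-fold lower beside at least 47.1-fold in mock. MAP9, a microtubule-associated protein gene, was at least 22.8-fold lower (mock 11.6), C1QTNF9 at least 20.9-fold (mock 11.9) and SEL1L3 at least 14.7-fold. In the other direction OR2M7, named as an olfactory receptor, was at least 9.53-fold higher in CEM RES (mock 12.4), GP9, a platelet glycoprotein gene, at least 9.4-fold, PCDH19 at least 5.09-fold and RAI2 at least 4.74-fold. PCDH19, a protocadherin gene, lost its call without either CEM PA FK866 array or without CEM RES FK866 replicates 1, 2 or 3 (adjusted p up to 0.228).

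Immediate early genes and feedback regulators of MAPK signalling, which respond within minutes to growth factor and antigen receptor signals, were lower in CEM RES under FK866. Of 36 listed genes 33 were tested, and 18 were lower and 1 was higher, so 57.6% were called beside 26.6% of all genes. The median log2 difference was -1.06 under FK866 and -0.41 in mock, beside 0.09 and 0.04 over all genes. In mock 13 were lower and 2 higher, and the change passed in RGS1 alone of the 33. The number of lower members fell to 9 without CEM PA FK866 replicate 2, and the median ranged from -1.17 to -0.76 over all settings. DUSP, KLF and other members outside the naming rule are named here after their values were seen.

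EGR1, a zinc finger transcription factor, was at 10.51 and 12 in CEM PA, against 6.49, 6.11, 5.25 and 6.73 in CEM RES, a difference of -5.11 (SE 0.71, limma adjusted p = 0.000269) beside -3.18 in mock. EGR2, of the same family, was at 5.04 and 7.98 in CEM PA and well above background on 1 of 4 CEM RES arrays. In both genes the CEM PA arrays differed from each other by more than 1 log2 unit and stayed above every CEM RES array. EGR2 differed by -4.46, a size that depends on signals near background and was -1.34 with normexp, and lost its call without CEM PA FK866 replicate 2 (limma adjusted p = 0.0586). KLF2 (-2.68), NR4A3 (-2.21), IER2 (-1.91), PHLDA1 (-1.68), CD69 (-1.47), JUN (-1.44), RGS16 (-1.09) and IER5 (-1.06) were also lower, with mock differences of -2.76 to -1.08. NR4A3 (adjusted p = 0.188), CD69 (0.09) and RGS16 (0.0554) lost their calls without CEM PA FK866 replicate 2, and PHLDA1 (0.0502) and IER5 (0.0501) without replicate 1.

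Several feedback regulators were called under FK866 and not in mock. The dual specificity phosphatase genes DUSP6 (-1.45), DUSP4 (-1.41) and DUSP2 (-1.22) were lower under FK866 and not called in mock, where they differed by -0.69, -0.41 and -0.31. DUSP10 was lower in both conditions, by -1.89 and -0.76, as was RGS2, by -2.10 and -1.89. The transcription factor genes KLF6 (-1.20) and NR4A2 (-0.85) were called under FK866 only, and KLF4 was called higher (0.78). None of these changes passed the test (limma adjusted p of 0.279 to 0.96). Without CEM PA FK866 replicate 2 the calls of DUSP6 (0.0631), KLF6 (0.0649), DUSP2 (0.145) and NR4A2 (0.396) were lost, DUSP2 also without replicate 1 or CEM RES FK866 replicate 1, and NR4A2 also without CEM RES FK866 replicates 1, 2 or 4. KLF4 was well above background on 1 of 2 CEM PA arrays and lost its call without any 1 of 5 of the 6 FK866 arrays (up to 0.314). FOS, FOSB, JUNB, JUND, DUSP1, IER3 and the SPRY and SPRED genes were among the 14 not called. MYC was higher in mock CEM RES (1.93) and differed by 0.94 under FK866 (limma adjusted p = 0.157).

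**Figure D4:**
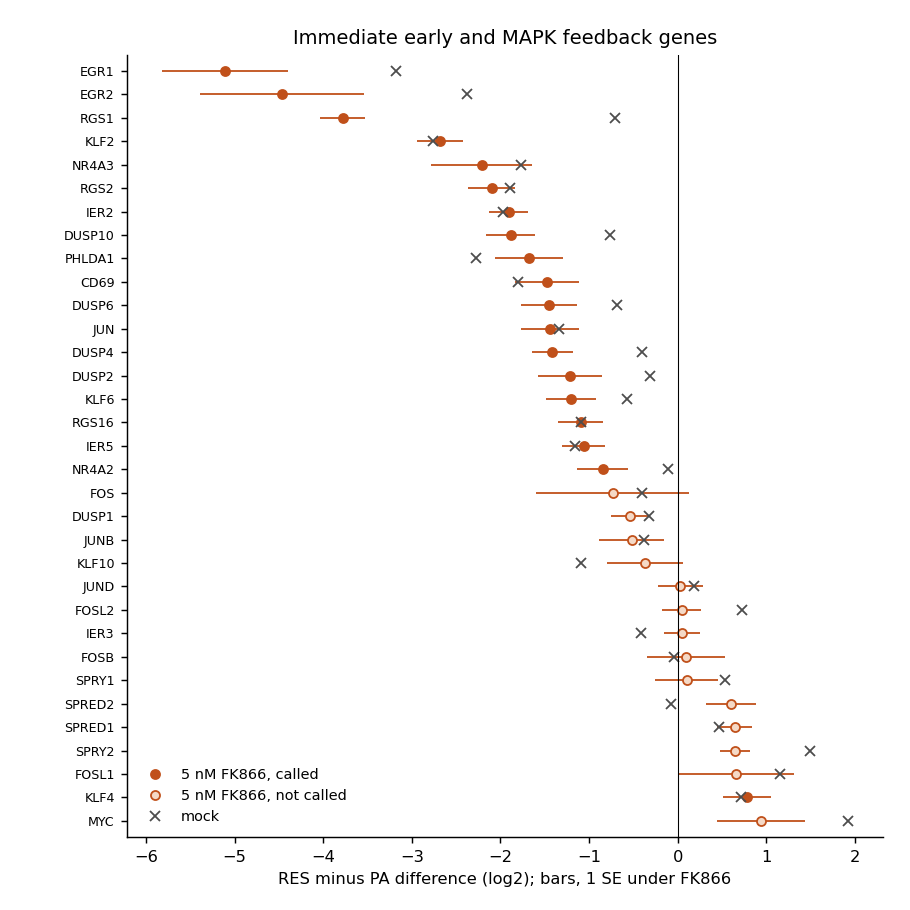
Log2 difference of CEM RES minus CEM PA (x axis) for the 33 tested immediate early and MAPK feedback genes, under FK866 (circles with bars of 1 SE, filled where called) and in mock (crosses). The filled circles of 18 genes lie between -5.11 and -0.85, and 13 of these are farther from 0 than the cross of the same gene.

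NAMPT, the target of FK866, did not pass between the lines under the drug. It was at 11.52 and 11.60 in CEM PA, against 11.26, 10.78, 10.97 and 11.37 in CEM RES, a difference of -0.47 (SE 0.22, limma adjusted p = 0.114), and the groups did not overlap. In mock it was lower in CEM RES by -0.81 (adjusted p = 0.0044), and the change did not pass (0.70). Of 22 listed genes of NAD+ biosynthesis 13 were tested, and 3 were higher and 0 lower under FK866 (23.1% called beside 26.6% of all genes). NMNAT1, which joins the nucleotide to ATP in the nucleus, was at 6.65 and 6.95 in CEM PA, against 7.33, 8.18, 7.76 and 7.89 in CEM RES (0.99, SE 0.23). Its call was lost without CEM PA FK866 replicate 1, with normexp and with the mean of its probes. Its lowest difference over all settings was 0.26. IDO1, the first enzyme of tryptophan breakdown, was well above background on 1 of 2 CEM PA and 4 of 4 CEM RES arrays. Its difference was 2.56, but 0.55 and not called with normexp. KMO, an enzyme of the same route, was higher by 0.77 and lost its call without CEM PA FK866 replicate 2 or CEM RES FK866 replicates 1, 3 or 4 (up to 0.302).

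The enzymes that start the other routes were not called. QPRT, which makes the nucleotide from the tryptophan route, differed by -0.34 (limma adjusted p = 0.246) and NAPRT (NAPRT1 on the array), which uses nicotinic acid, by -0.05 (0.909). NMRK1 (C9orf95), which uses nicotinamide riboside, differed by 0.34 (0.214). NADSYN1 differed by -0.10, PNP by 0.05, AFMID by -0.16, HAAO by 0.37, NADK by 0.04 and NADK2 (NADKD1) by 0.78 (0.0544), none of them called. Of 26 genes of NAD+ consuming enzymes 25 were tested, and 4 were higher and 0 lower under FK866 (16.0% beside 26.6%). The sirtuin SIRT6 was at 9.54 and 9.42 in CEM PA and 10.21 to 10.74 in CEM RES (1.10, SE 0.17). PARP14 was higher by 1.16, the glycohydrolase CD38 by 0.90 and TNKS, a tankyrase, by 0.87. PARP14 (adjusted p = 0.197) and CD38 (0.109) lost their calls without CEM PA FK866 replicate 1. SIRT3, of the mitochondria, was lower in mock CEM RES (-1.18) and differed by -0.29 under FK866 (0.213), and SIRT1 differed by -0.11. The list medians were 0.05 for both groups of genes, close to 0.09 over all genes.

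Of the genes of oxidative phosphorylation (OXPHOS), nearly all those encoded in mitochondria were higher in CEM RES in both conditions. All 13 mitochondrially encoded genes were called, 12 higher and 1 lower, with a median of 3.16 under FK866 and 3.25 in mock. ND3, a subunit of complex I, was at 10.53 and 10.82 in CEM PA, against 14.62, 14.71, 14.60 and 14.55 in CEM RES (3.95, SE 0.21, limma adjusted p = 7.06e-07). ND4L differed by 4.02 and COX3, of complex IV, by 3.72, and the lines were apart by at least 3 log2 units. ND6, which is encoded on the other strand, was lower by -1.75 and lost its call without either CEM PA FK866 array (adjusted p up to 0.103). Of 77 nuclear genes of the complexes 22 were higher, 1 was lower and 54 were not called, with a median of 0.51 (mock 0.65). Their called share of 29.9% was near the 26.6% of all genes. COX7B differed by 2.65, NDUFB11 by 1.81 and NDUFB3 by 1.62. NDUFA10 was lower by -0.82, and not called without CEM PA FK866 replicate 1 (0.104). No change of these 90 genes passed the test.

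**Figure D5:**
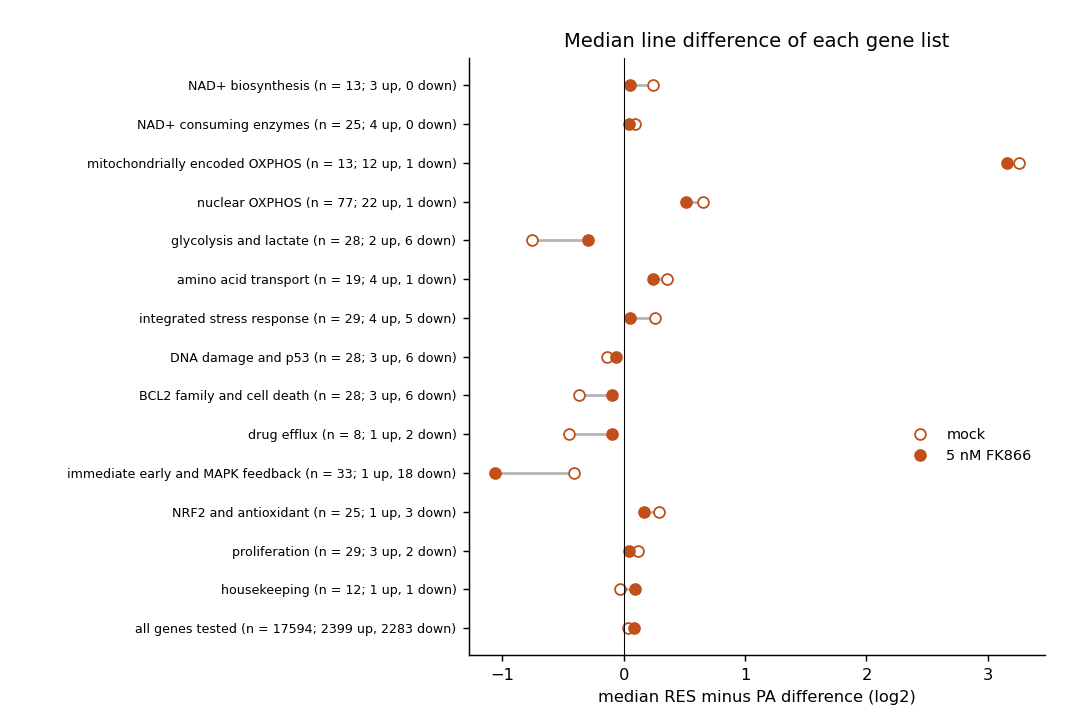
Median log2 difference of CEM RES minus CEM PA (x axis) of each gene list under FK866 (filled) and in mock (open), with the number of members tested and called higher (up) or lower (down) under FK866. The largest median is that of the mitochondrially encoded genes, 3.16 under FK866, and the lowest that of the immediate early and MAPK feedback genes, -1.06.

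Of 28 genes of glycolysis and lactate 2 were higher and 6 lower in CEM RES under FK866, and 1 was higher and 13 lower in mock. The share called under FK866, 28.6%, was near the 26.6% of all genes. The median was -0.29 under FK866 and -0.76 in mock. ALDOC, an aldolase, was lower by -2.87 (SE 0.64), the glucose transporter gene SLC2A3 by -2.05 and the phosphofructokinase gene PFKM by -1.61. PGAM1, a mutase of the lower pathway, was at 13.91 and 14.21 in CEM PA, against 15.60, 15.44, 15.75 and 15.96 in CEM RES (1.63, SE 0.22) beside 1.02 in mock. The pyruvate kinase gene PKM (PKM2 on the array) was called under FK866 alone (0.85), and not without either CEM PA FK866 array or CEM RES FK866 replicate 4 (adjusted p up to 0.143). LDHA, which makes lactate, was at 17.00 and 16.84 against 17.20, 16.67, 17.01 and 17.15, with overlap, and differed by 0.09 (limma adjusted p = 0.742). No change of the 28 genes passed the test.

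Of 21 amino acid transporter genes 19 were tested, and 4 were higher and 1 lower, a share of 26.3% beside 26.6% of all genes. SLC38A9, a sensor of arginine at the lysosome, was at 10.16 and 10.50 in CEM PA, against 11.32, 11.28, 11.28 and 11.10 in CEM RES (0.92, SE 0.17) beside 0.46 in mock. SLC1A4 was higher by 1.12, the cationic amino acid transporter gene SLC7A1 by 0.98 and SLC7A5, of the large neutral amino acid transporter, by 0.76. Without either CEM PA FK866 array SLC1A4 (adjusted p up to 0.0709), SLC7A1 (0.0864) and SLC7A5 (0.119) were not called, SLC7A5 also not without CEM RES FK866 replicates 2 or 3. SLC7A7 was well above background on both CEM PA arrays and on 0 of 4 in CEM RES, at least 5.74-fold lower.

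Of 30 genes of the integrated stress response, which lowers translation and induces amino acid synthesis under stress, 29 were tested, and 4 were higher and 5 lower (31.0% called beside 26.6% of all genes). CHAC1, which degrades glutathione, was at 11.05 and 10.98 in CEM PA, against 12.05, 13.09, 12.92 and 12.22 in CEM RES (1.55, SE 0.32). VLDLR, a lipoprotein receptor gene, was higher by 0.99 under FK866 and 0.24 in mock, and PSPH, of serine synthesis, by 0.91 and 0.84. With the mean of its probes VLDLR differed by 0.59 under FK866 and was not called. PPP1R15A (GADD34), which reverses the block of translation, was at 10.97 and 10.69 in CEM PA, against 7.70, 8.51, 8.69 and 8.97 in CEM RES (-2.37, SE 0.30) beside -0.92 in mock, and its change did not pass (limma adjusted p = 0.227). CTH was lower by -1.32 and EIF2AK3 (PERK) by -1.07. PSPH was not called without either CEM PA FK866 array (up to 0.0813). DDIT3 (CHOP) differed by -0.08 under FK866 and was higher in mock CEM RES by 0.80, and ASNS, an asparagine synthetase, differed by -0.28 (0.168).

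DNA damage and p53 genes were called in 9 of 28 tested, 3 higher and 6 lower (32.1% beside 26.6% of all genes). ATR, an apical kinase of the response, was at 11.07 and 11.19 in CEM PA, against 12, 12.11, 12.05 and 11.91 in CEM RES (0.89, SE 0.17) beside 0.41 in mock. GADD45A was lower by -1.69, the BH3-only gene BBC3 (PUMA) by -1.45 and PLK3 by -1.42, and each was also lower in mock. CHEK1, the kinase downstream of ATR, was at 12.46 and 12.54 against 11.75, 11.85, 11.83 and 11.47 (-0.78, SE 0.15), while its mock difference was 0.05, and the change did not pass (limma adjusted p = 0.201). Its fold was under the limit without CEM PA FK866 replicate 2 (-0.74) or CEM RES FK866 replicate 4 (-0.69). PMAIP1 (NOXA) was higher by 0.76 and not called without CEM PA FK866 replicates 1 or 2 or CEM RES FK866 replicates 1 or 3 (adjusted p up to 0.148). GADD45G was called higher but was well above background on 0 of 2 CEM PA and 1 of 4 CEM RES arrays, and it was not called without CEM PA FK866 replicate 1 (0.0799).

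Of 28 genes of the BCL2 family and cell death 3 were higher and 6 lower (32.1% called beside 26.6% of all genes). BAX, an effector of mitochondrial permeabilization, was at 12.20 and 12.35 in CEM PA, against 9.57, 9.59, 9.17 and 9.20 in CEM RES (-2.90, SE 0.25) beside -3.08 in mock, but its other probe differed by -0.14 under FK866. The BH3-only genes BMF and HRK were lower by -2.30 and -1.71, and HRK differed by -0.33 in mock. DIABLO, which antagonizes inhibitors of apoptosis, was higher by 1.11 and not called without CEM PA FK866 replicate 1 or CEM RES FK866 replicate 4. It was also not called with normexp or with scaling to the 75th percentile. BAD was higher by 0.88 and not called without CEM PA FK866 replicate 2 or with the mean of its probes. CFLAR, an inhibitor of death receptor signalling, was higher by 1.32 on its brightest probe, while its other probes differed by -1.50 to -0.69, so no direction can be given for the gene.

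Of 12 drug efflux transporters 8 were tested and 3 called (37.5% beside 26.6% of all genes). ABCC1 (MRP1) was higher by 0.77 and ABCA2 and ABCC10 were lower by -1.99 and -0.77. ABCC1 was not called without CEM PA FK866 replicate 1 or CEM RES FK866 replicate 2 (adjusted p up to 0.0849), nor was ABCC10, whose fold was then under the limit (-0.70 without the first of these arrays).

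The antioxidant genes were called in 4 of 25 tested (16.0% beside 26.6% of all genes), all under FK866 alone and none with a change that passed. GSR, glutathione reductase, was at 12 and 12.01 in CEM PA, against 11.12, 11.14, 10.94 and 11.14 in CEM RES (-0.92, SE 0.17) beside -0.22 in mock, and its other probe differed by 0.21. The ferritin gene FTL (-0.87) and GCLC, of glutathione synthesis (-0.81), were lower and IDH1, a source of NADPH, was higher (0.79). FTL, GCLC and IDH1 each lost the call without some arrays: FTL without CEM PA FK866 replicate 1 (adjusted p = 0.115) or CEM RES FK866 replicate 4, GCLC without CEM PA FK866 replicates 1 or 2 or CEM RES FK866 replicates 3 or 4 (up to 0.181), and IDH1 without CEM PA FK866 replicate 2 or CEM RES FK866 replicate 3 (up to 0.0583).

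Of 29 proliferation genes tested 3 were higher and 2 lower (17.2% called beside 26.6% of all genes). MKI67, the marker of cycling cells, was at 10.04 and 10.99 in CEM PA, against 13.55, 13.17, 12.79 and 12.52 in CEM RES (2.49, SE 0.51) beside 3.38 in mock. The cyclin-dependent kinase gene CDK4 was higher by 1.13 and the mitotic checkpoint gene BUB1 by 0.76, and the cyclin gene CCNE1 and E2F1 were lower by -0.94 and -0.79. MKI67 (adjusted p = 0.0567) and CCNE1 (0.139) were not called without CEM PA FK866 replicate 1, E2F1 (up to 0.0567) not without CEM PA FK866 replicate 2 or CEM RES FK866 replicate 3, and BUB1 (up to 0.0655) not without CEM PA FK866 replicate 1 or CEM RES FK866 replicates 1, 3 or 4. Of the 12 housekeeping genes 10 were not called, TFRC was higher by 1.02 (not without CEM PA FK866 replicate 1, 0.105) and GUSB lower by -1.56. ATF2, a transcription factor of the CREB family, was higher in mock CEM RES (0.78) and differed by -0.21 under FK866 (limma adjusted p = 0.52).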

How the data were processed

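RNA of 13 samples was hybridised to 1-colour Agilent whole human genome arrays. The authors deposited scanner output in which each spot has a background-corrected intensity, made with Feature Extraction (10.7.7.1 in the submitters' processing notes, 10.7.3.1 in the file headers). The deposited series table holds the authors' normalized log2 values and served as an alternative. Here the log2 of the processed intensity was taken, control spots and outlier-marked spots were left out, arrays were quantile normalized and spots of 1 probe averaged. Of 34127 probes 22751 passed a filter that asked for a signal well above background throughout 1 group or more, and the brightest probe stood for each of 17594 genes. Values of 29 genes were missing on some array. Current names were found for 12836 genes, and 4088 genes had several kept probes.

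A model with 4 groups was fitted to all 13 arrays with limma 3.58.1 in R 4.3.3 (tables with Python 3.11.15, pandas 2.3.3 and numpy 2.4.6), with Benjamini-Hochberg adjustment over all genes. Probe coordinates are those of hg19 in the scanner files. Replicate numbers were checked by the correlation of deviations from group means, for arrays of the same number only. Within lines r was 0.342 to 0.44 in CEM PA and 0.217 to 0.484 in CEM RES. Across lines it was -0.104 and 0.131 for the FK866 arrays. The numbers were taken to pair mock and FK866 arrays of a line, which these values do not establish. Genes were named by a rule: all differences absent in mock, absent under FK866 or opposite, NAMPT and 10 other genes the study names, all measured NAD+ biosynthesis genes, the 3 largest calls in each direction of each list, and the 8 largest rises and falls and 4 largest bounds in each direction among genes with non-overlapping groups whose other probes moved alike. The other genes whose change passed were added after their values were seen. Members and lists were chosen with earlier results of these data known. The script was tested on simulated data. Alternatives were other scalings, normexp, the deposited table, other filters and probe rules, trend, array weights, blocks for replicate, slide and session, other interval limits, and leaving out each array. One marker result is not reported here.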

Additional observations from a re-analysis of the deposited data

Results flagged for a closer look

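In groups of 4 arrays, 1 array stood apart from the other 3 by Dixon's criterion in 8 of 248 groups of 124 genes, where chance gives about 1 in 20. The gap as a share of the range was 0.893 for RAI2 in CEM RES FK866 replicate 3 (log2 signal 7.14 against 4.81 to 5.06) and 0.85 for SIRT6 in replicate 1 (10.21 against 10.66 to 10.74). It was 0.879 for NDUFB3 in replicate 4 (14.56 against 14.64 to 14.65), 0.833 for SLC38A9 in replicate 4 (11.10 against 11.28 to 11.32) and 0.905 for GSR in replicate 3 (10.94 against 11.12 to 11.14). Among the mock CEM RES arrays it was 0.87 for BMF in replicate 2 (3.82 against 4.67 to 4.80), 0.913 for ABCC10 in replicate 4 (9.12 against 8.84 to 8.87) and 0.901 for NUTM2G (FAM22G) in replicate 1 (6.75 against 6.11 to 6.17).

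The line difference changed with FK866 at a limma adjusted p under 0.05 in 23 genes. On the log2 scale the change was -3.08 for RGS1, -2.92 for the unnamed probe A_33_P3312754, -2.77 for KLHL11, -2.53 for LATS1, -2.24 for FLCN and -2.02 for MME. It was -1.99 for FAM22G, -1.85 for KLHL15, -1.79 for RMND5A, -1.78 for MARCH8, -1.72 for SPTBN1, -1.66 for RBM33, -1.64 for SECISBP2L and SEMA7A, -1.63 for WDR33, -1.60 for CELF1 and -1.58 for SAMD8. It was -1.41 for C6orf106, -1.40 for STK17B, -1.37 for DNAJC3 and -1.34 for PCGF3, and 1.42 for PEX3. The fitted value of POLR2M was -3.24, but no array of CEM RES with FK866 or of mock CEM PA measured it well above background, so the size of its change is not known.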

How the results depend on the processing

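The 4682 genes called under FK866 became 3003 with normexp, and 3003 to 4870 without 1 array. The 5849 mock calls became 3779 with normexp, and 5542 to 5999 without 1 array. The 23 changes became 53 with array weights, 7 with the mean of a gene's probes and 9 without the filter on dim probes, and 6 (without CEM RES FK866 replicate 1) to 33 (without CEM PA FK866 replicate 2) without 1 array. With the replicate block over all arrays 3 changes passed, and with pairing within each line 31, of which 12 were among the 23; the other calls with the block stand beside their genes. The 7 genes absent in mock became 18 with array weights, 0 with the mean of probes, 2 without the filter, 19 with normexp, 1 with the replicate block, 2 with an interval limit of 0.5 and 11 with a limit of 1, and 1 to 18 without 1 array. The difference of CFLAR under FK866 turned to -0.29 with the mean of probes, -1.43 with scaling to the 75th percentile and lay between -1.53 and 1.40 without 1 array. The change of C6orf106 turned to 0.26 with normexp and lay between -1.52 and 0.16 without 1 array; in both genes the brightest probe can differ between fits. The cause of the other shifts was not tested. Of 104 named genes called under FK866, 57 kept the call in every setting run. With 2 arrays of CEM PA under FK866 and some probes near background, sizes of single genes are of limited precision.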
